A study of Mus musculus with 8 samples.

Results

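Endothelial cells and blood stem cells share a set of surface and junction genes, and 10 of these were followed across the 8 libraries of the study: Tie1, Tek, Esam, Pdzk1ip1, Cdh5, Emcn, Robo4, Pecam1, Jam3 and Cd93. They were taken by name from the 48795 genes of the count table after Ensembl identifiers, without their version, had been matched to mouse symbols, and all 10 were found. They were chosen by name with the CPM values and genotype log2 fold changes of these same libraries already known, Tie1 and Pdzk1ip1 leading. The differences between genotypes given below are therefore a description of these libraries and no independent test.

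RNA came from LSK cells, the sorted bone marrow fraction that lacks lineage markers, carries Sca-1 and c-Kit, and contains stem cells and early progenitors. All mice were of the C57BL/6 strain and had been induced for chronic myeloid leukaemia (CML), a disease driven by the BCR-ABL kinase, for 10 weeks. The control group was labelled control (cre-) and the other SIRT1 deleted (cre+), with 4 libraries each, described as biological replicates. SIRT1 is an NAD-dependent deacetylase, and series and labels place the comparison in a study of its part in CML stem cells. The promoter that drives Cre, the way CML was induced, the age and sex of the mice and any pooling of animals were not stated in the labels or notes used here. Replicate numbers only name libraries, by order of deposit, and form no pairs.

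Libraries held 18252562 to 34280925 counts over genes and 15316 to 20342 detected genes, the fewest in control 2 (15316) and Sirt1-deleted 1 (16154). Levels are given as CPM, counts scaled to a common library size by TMM (trimmed mean of M-values). Sirt1 itself was at 16.6, 17.9, 8.14 and 9.57 CPM across controls 1 to 4 and at 17.0, 10.4, 8.89 and 7.44 CPM across Sirt1-deleted 1 to 4, so a count over the whole gene did not separate the labels and cannot show a missing exon. The genes of the markers that the sorted cells carry, Kit and Ly6a, were present in every library. Kit was at 32.4 to 44.0 CPM in controls and 108 to 157 CPM in Sirt1-deleted libraries. Ly6a, which encodes Sca-1, was at 191 ± 49.2 CPM (SD, n = 4) in the Sirt1-deleted group and 405 ± 255 in controls. Kit was thus higher, and Ly6a lower, in every Sirt1-deleted library than in any control. 

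Blood stem cells and endothelium arise from common embryonic ancestors, and in the adult they keep a number of genes in common. Several encode receptors and adhesion molecules: Tek (also called Tie2) binds angiopoietins, Tie1 is its partner without a well-defined ligand of its own, and Cdh5, Esam, Pecam1 and Jam3 encode proteins of cell-cell junctions. In mouse marrow, Esam, Tek, Robo4, Emcn, Pdzk1ip1 and Cd93 are known to be expressed by stem cells or early progenitors and are used to mark them, and Pecam1, Esam and Jam3 are also found on platelets and their precursors. Both tissues use transcription factors of the ETS and GATA families.

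Promoter windows of the members were looked up because most of the list stood higher in the same libraries. RefSeq windows of 300 bases, 250 before and 50 after the annotated start (GRCm38.p6), were given for 5 of the 10 members: Tie1, Tek, Pdzk1ip1, Emcn and Robo4. Cdh5, Esam, Pecam1, Jam3 and Cd93 had none. The windows of the 4 that also stood apart between genotypes are shown 5′ to 3′ on the strand of the gene, with capitals for the ETS-type letters AGGAAG or CGGAAG, read on both strands (CTTCCT or CTTCCG on the other). They lie at chr4:118489800-118490099 (minus strand) for Tie1, chr4:94739039-94739338 (plus) for Tek, chr4:115088458-115088757 (plus) for Pdzk1ip1 and chr9:37401722-37402021 (plus) for Robo4.
Tie1: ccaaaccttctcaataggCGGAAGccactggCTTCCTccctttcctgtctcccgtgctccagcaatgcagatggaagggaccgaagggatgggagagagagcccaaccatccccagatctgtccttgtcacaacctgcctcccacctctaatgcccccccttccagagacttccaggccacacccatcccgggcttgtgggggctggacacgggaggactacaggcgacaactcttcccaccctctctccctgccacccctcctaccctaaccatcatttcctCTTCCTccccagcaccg
Tek: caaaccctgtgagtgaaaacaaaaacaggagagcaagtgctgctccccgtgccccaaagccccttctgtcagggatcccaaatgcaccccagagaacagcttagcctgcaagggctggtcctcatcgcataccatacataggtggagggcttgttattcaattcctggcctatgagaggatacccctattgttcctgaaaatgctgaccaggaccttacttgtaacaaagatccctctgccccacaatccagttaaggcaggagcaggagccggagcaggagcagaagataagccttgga
Pdzk1ip1: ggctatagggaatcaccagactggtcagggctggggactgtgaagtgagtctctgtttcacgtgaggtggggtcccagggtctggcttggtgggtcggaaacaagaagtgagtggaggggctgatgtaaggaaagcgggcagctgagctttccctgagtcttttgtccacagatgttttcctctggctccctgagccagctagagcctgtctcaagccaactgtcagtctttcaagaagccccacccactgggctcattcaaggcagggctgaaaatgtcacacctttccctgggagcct
Robo4: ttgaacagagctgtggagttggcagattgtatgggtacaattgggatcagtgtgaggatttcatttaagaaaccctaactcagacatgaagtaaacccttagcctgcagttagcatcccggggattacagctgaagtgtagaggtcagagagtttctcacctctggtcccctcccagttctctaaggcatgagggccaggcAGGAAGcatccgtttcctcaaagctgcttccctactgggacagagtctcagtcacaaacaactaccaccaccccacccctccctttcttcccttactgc
The Tie1 window held 3 such matches and the Robo4 window 1, while those of Tek and Pdzk1ip1 held 0. With the window of Emcn, which held 2, an ETS-type match was present in 3 of 5 windows, and in 46.5% of the 32817 promoter windows of the mouse table. The GATA-type letters AGATAA, whose reverse complement TTATCT was searched too, were found in the Tek window alone among the 5, against 11.2% of all windows. The E-box CAGCTG, which reads the same on both strands, was in those of Pdzk1ip1 and Robo4 and in 16.3% of all. The RUNX-type letters TGTGGT, whose reverse complement ACCACA was searched too, were in 0 of 5 windows and in 16.8% of all. None of the ETS-type matches overlapped a match to another of these motifs. A match describes letters and does not show a bound site.

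The members fell into 3 kinds by their values. Pecam1 and Cd93 were well expressed in both genotypes and stood less than 2-fold apart. Tie1, Tek, Robo4, Pdzk1ip1 and Esam were low to moderate in controls and 3.80 to 10.5 times as high in mean CPM in Sirt1-deleted libraries. The 10.5 is that of Tek, over controls of 0 to 29 counts, and its size is poorly set. Emcn, Jam3 and Cdh5 were low, and their groups overlapped. Since these are bulk samples, a larger share of cells that express a gene and more RNA per cell cannot be told apart.

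**Figure D1:**
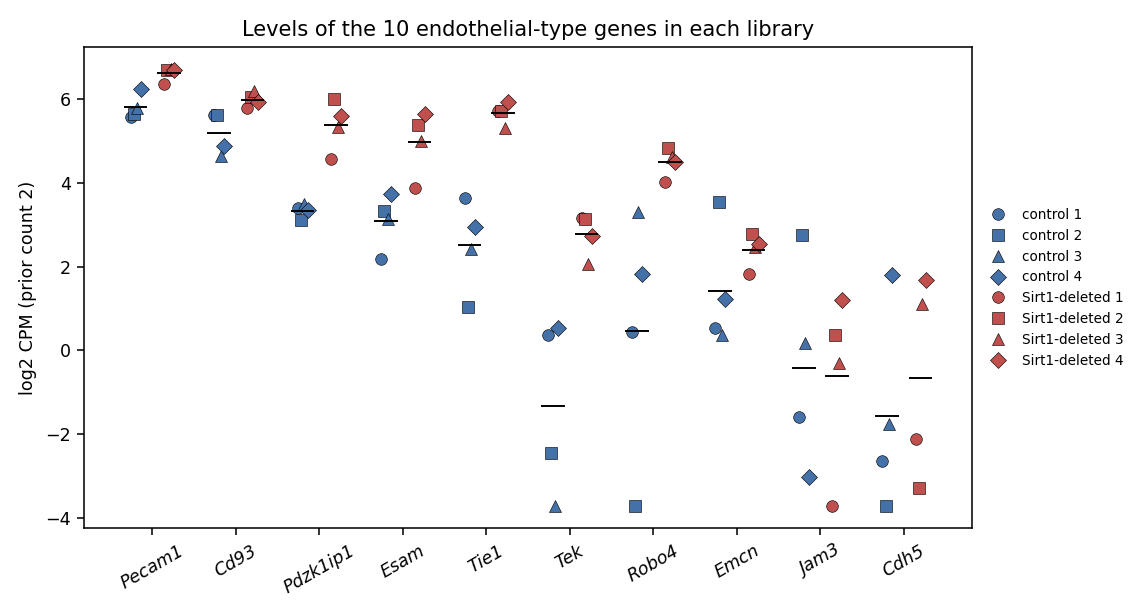
Each point is the log2 CPM (prior count 2) of a gene in 1 library, with controls in blue, Sirt1-deleted libraries in red and bars at the group means; a count of 0 plots at -3.72. Groups are to be compared within a gene. For Pecam1, Cd93, Pdzk1ip1, Esam, Tie1, Tek and Robo4 the 4 red points lie above the 4 blue ones, and for Emcn, Jam3 and Cdh5 they mix.

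The 2 receptor kinases had the highest fitted log2 fold changes of the list over the 8 libraries. That order depended on the setting, since Robo4 was above Tie1 with limma-voom (3.50 against 2.87) and above both without control 3 (3.83, against 2.78 for Tie1 and 2.96 for Tek). Tie1 (ENSMUSG00000033191, chromosome 4, 118471191 to 118490061, GRCm38) was at 12.4, 1.98, 5.26 and 7.63 CPM across controls 1 to 4 and at 52.3, 52.5, 39.5 and 60.6 CPM across Sirt1-deleted 1 to 4. The lowest Sirt1-deleted library was thus far above the highest control, and control 2 was the lowest of all. The means were 6.81 ± 4.38 and 51.2 ± 8.69 CPM (SD, n = 4 each), and the fitted log2 fold change was 2.91 with an SE of 0.50 (adjusted p = 0.0741 over all genes in edgeR). Tek (ENSMUSG00000006386, chromosome 4, 94739289 to 94874976), whose product is the angiopoietin receptor, had only 28, 3, 0 and 29 counts across controls 1 to 4, against 231, 329, 100 and 215 across Sirt1-deleted 1 to 4. In CPM these were 1.20, 0.108, 0 and 1.37, and 8.92, 8.72, 4.08 and 6.61. Controls were therefore at the edge of detection, with control 3 at 0, and the size of the Tek fold rests on few control reads. The means of 0.672 ± 0.718 and 7.08 ± 2.26 CPM gave a log2 fold change of 3.39 ± 1.17 (edgeR adjusted p = 0.209). Both genes lie on chromosome 4, 23596.2 kb apart, so they are no neighbours.

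The adhesion molecule gene Esam and the gene of the small membrane protein Pdzk1ip1 had the most regular control values of the lower members. Pdzk1ip1 (ENSMUSG00000028716, chromosome 4, 115088708 to 115093899), whose product binds PDZ-domain proteins, was at 10.5, 8.57, 11.2 and 10.1 CPM across controls 1 to 4. Across Sirt1-deleted 1 to 4 it was at 23.7, 63.7, 40.0 and 48.1 CPM. Controls were tightly grouped, and the Sirt1-deleted libraries were spread widely above them with Sirt1-deleted 1 the lowest. The log2 fold change was 2.12 ± 0.30, and its edgeR adjusted p of 0.0538 was the smallest in the list. Esam (ENSMUSG00000001946, chromosome 9, 37528078 to 37538319), which encodes an immunoglobulin-type protein of endothelial tight junctions, was at 4.47, 9.98, 8.75 and 13.2 CPM across controls 1 to 4 and at 14.7, 41.9, 32.1 and 49.8 across Sirt1-deleted 1 to 4. Here Sirt1-deleted 1 came close to the highest control (14.7 against 13.2 CPM). The log2 fold change was 1.93 ± 0.44 (edgeR adjusted p = 0.106).

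Robo4 (ENSMUSG00000032125, chromosome 9, 37401897 to 37415115), a roundabout receptor gene of endothelium that also serves stem cell homing in mouse, was at 1.29, 0, 9.86 and 3.46 CPM across controls 1 to 4. It was at 16.2, 28.5, 24.3 and 22.3 CPM across Sirt1-deleted 1 to 4. The controls ranged from no read in control 2 to 178 counts in control 3, so the fold change depends on which control is kept. It was 2.65 ± 1.15 on the log2 scale (edgeR adjusted p = 0.304), 2.20 without control 2 and 3.83 without control 3. Robo4 and Esam lie 113.0 kb apart on chromosome 9 with 4 annotated genes between them, 2 of them protein-coding. Despite that closeness their controls were ordered differently, with Robo4 highest in control 3 and Esam highest in control 4.

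Pecam1 (ENSMUSG00000020717, chromosome 11, 106654217 to 106750628), whose product binds itself on neighbouring endothelial cells, platelets and leukocytes, was at 47.6, 49.9, 54.9 and 75.7 CPM across controls 1 to 4. Across Sirt1-deleted 1 to 4 it was at 81.7, 104, 105 and 103 CPM. The groups did not overlap, but control 4 and Sirt1-deleted 1 were close. The log2 fold change was 0.79 ± 0.18 (edgeR adjusted p = 0.106), and 0.57 once the trends of counts with exon length and GC content had been taken out of each library. Cd93 (ENSMUSG00000027435, chromosome 2, 148436640 to 148443563), the gene of a lectin-like receptor of endothelium, myeloid cells and early progenitors, was at 49.0, 49.1, 24.7 and 29.5 CPM across controls 1 to 4. It was at 55.1, 65.8, 72.6 and 60.7 CPM across Sirt1-deleted 1 to 4. Controls 1 and 2 were almost as high as Sirt1-deleted 1. The log2 fold change was 0.74 ± 0.25 (edgeR adjusted p = 0.202).

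Emcn, Jam3 and Cdh5 overlapped between genotypes. Emcn (ENSMUSG00000054690, chromosome 3, 137341067 to 137432185), the gene of the sialomucin endomucin, was at 1.38, 11.5, 1.22 and 2.27 CPM across controls 1 to 4 and at 3.44, 6.76, 5.50 and 5.75 CPM across Sirt1-deleted 1 to 4. Control 2 was the highest library of all, and the other 3 controls lay under every Sirt1-deleted library. The log2 fold change was 0.38 ± 0.78 (edgeR adjusted p = 0.853), 1.68 without control 2 and 0.03 without control 3. Jam3 (ENSMUSG00000031990, chromosome 9, 27097384 to 27155421), the gene of a junctional adhesion molecule, had 6, 185, 19 and 1 counts across controls 1 to 4 and 0, 46, 18 and 73 across Sirt1-deleted 1 to 4. Its log2 fold change of -0.93 ± 1.57 (edgeR adjusted p = 0.818) rested on control 2 and was 1.18 without it. An antisense gene annotated in GENCODE M21 shares 36.2% of the exon bases of Jam3, and the library chemistry does not mark strand, so reads of the pair cannot be told apart and the counts of Jam3 may hold reads of the antisense gene, which was not analysed here. Cdh5 (ENSMUSG00000031871, chromosome 8, 104101625 to 104144511), which encodes the cadherin of endothelial adherens junctions, had 2, 0, 4 and 72 counts across controls 1 to 4 and 4, 1, 51 and 101 across Sirt1-deleted 1 to 4. Most reads of Cdh5 were in control 4 and Sirt1-deleted 3 and 4.

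In the fit over the whole table, 0 of the 9 members that passed the filter on low counts were called at an adjusted p under 0.05 (edgeR quasi-likelihood F test, two-sided, Benjamini-Hochberg over 14178 genes), where 0.0846% of all genes tested were called. The filter asked for about 10 counts at the median library size in at least 4 libraries. Cdh5 reached this in 3 libraries and was not tested, while Tek (2 control libraries), Jam3 (2) and Robo4 (3) passed only with the help of their Sirt1-deleted libraries. At an unadjusted p under 0.05 there were 7 members, beside 16.2% of all genes. DESeq2 called 5 (Tie1, Tek, Esam, Pdzk1ip1 and Pecam1) beside 7.66% of all genes, and limma-voom with quality weights called 5 (Tie1, Esam, Pdzk1ip1, Pecam1 and Cd93) beside 8.03%. EdgeR called Tie1, Esam and Pdzk1ip1 without Sirt1-deleted 1 (adjusted p = 0.0416, 0.0366 and 0.0323, beside 3.05% of all genes), and Tie1 and Pdzk1ip1 without both control 2 and Sirt1-deleted 1 (0.0439 for each, beside 2.13%).

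Of the 10 members, 7 had groups that did not overlap, all higher in the Sirt1-deleted group, where 6.64% of all genes tested did so in that direction. This count was known when the list was made, and nothing is read from it. The median log2 fold change of the tested members was 1.93, beside 0.06 over all genes tested, and 8 of the 9 were positive, beside 53.9% of all. With no filter on low counts, so that Cdh5 is included, the median was 1.38 over 10 members.

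**Figure D2:**
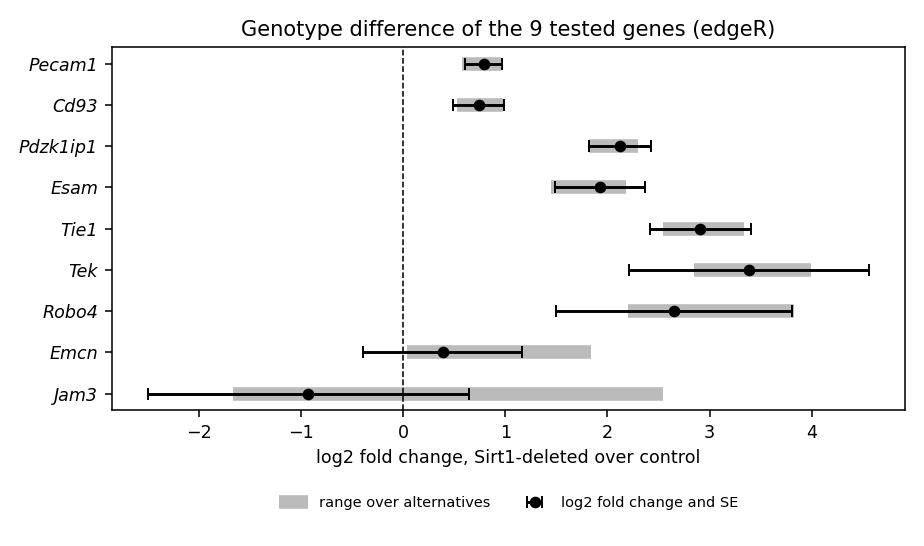
Points and black bars give the log2 fold change of each tested gene (Sirt1-deleted over control, edgeR) with its SE, and grey bars give the range over 16 alternative settings. The ranges of 8 genes stay to the right of 0, and that of Jam3 runs from -1.67 to 2.54.

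The members did not move as a fixed block among libraries of the same genotype. After centring each gene on its mean, the median over tested members was -0.96, -0.71, -0.90 and -0.68 across controls 1 to 4 and 0.20, 1.35, 0.97 and 1.60 across Sirt1-deleted 1 to 4. Sirt1-deleted 1 thus stood closest to the controls. Yet in that library Tek was the highest of all 8 and Tie1 the third highest, whereas Esam and Pdzk1ip1 were the lowest of their group. Control 2 was the lowest library for Tie1, Pdzk1ip1 and Robo4 and the highest for Emcn and Jam3, among the 9 tested members. Both libraries had the fewest detected genes. The median log2 fold change was 1.82 over 9 members with detected genes as a covariate, and 2.01 over 10 members without both libraries. The part of the number of detected genes in the members' values in single libraries was not tested. Across all 80 values there were 4 exact zeros, in Tek, Cdh5, Robo4 and Jam3, and 2 of these were in control 2. Summed over the 10 members, libraries held 128, 138, 117 and 147 CPM across controls 1 to 4 and 256, 373, 326 and 362 CPM across Sirt1-deleted 1 to 4.

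**Figure D3:**
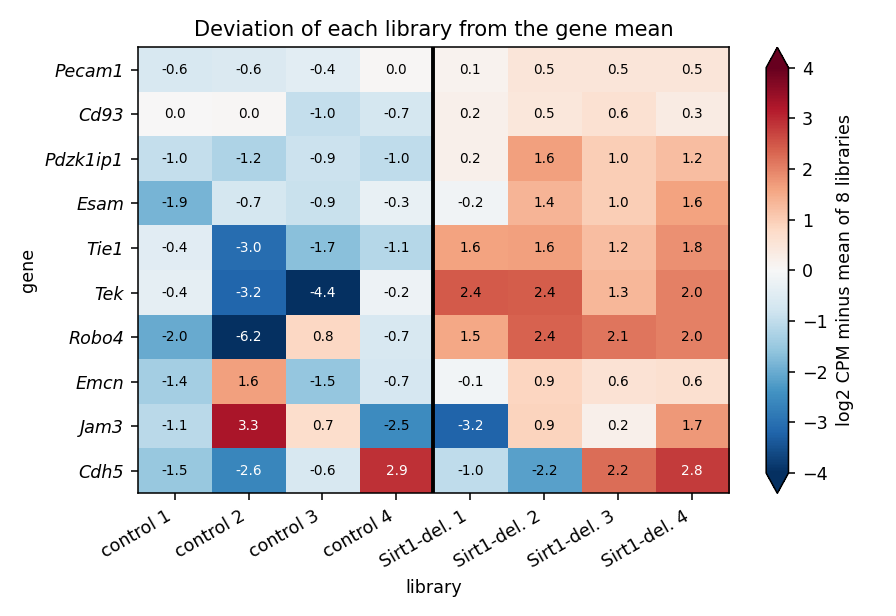
Each cell gives the log2 CPM of a gene in a library minus the mean of that gene over the 8 libraries; red is higher and blue lower, and the vertical line parts controls from Sirt1-deleted libraries. The upper 7 rows are mostly blue on the left and red on the right, while Emcn and Jam3 are highest in control 2.

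Levels of different genes were compared per kilobase of annotated exon. In controls Pecam1 was the highest, at 9.16 ± 2.06 CPM per kilobase, and its 4 values were above those of all other members. Cd93 (5.70 ± 1.92) and Pdzk1ip1 (5.67 ± 0.62) followed and did not differ beyond their spread. Esam (3.18 ± 1.26) was below Pdzk1ip1 in all 4 controls, and Tie1 (1.39 ± 0.89) overlapped with Esam. Emcn, Robo4, Jam3, Cdh5 and Tek had means from 0.143 to 0.758 CPM per kilobase, and each overlapped with its neighbour in the order. In the Sirt1-deleted group Pdzk1ip1 came first, at 24.7 ± 9.37 CPM per kilobase, and was above Pecam1 (15.8 ± 1.77) within each of the 4 libraries, although the ranges over libraries overlapped. Esam (12.1 ± 5.27), Tie1 (10.4 ± 1.77) and Cd93 (9.52 ± 1.12) overlapped in turn. Robo4 (4.31 ± 0.97) was below Cd93 and above Tek (1.50 ± 0.48) in every library, and Emcn, Jam3 and Cdh5 were lowest. Among all tested genes the Sirt1-deleted level of Tie1 lay at the 68.0th percentile and its control level at the 30.6th. With the longest transcript in place of all exons, Pdzk1ip1 passed Cd93 in controls, and Esam, Pdzk1ip1 and Pecam1 moved up by more than 1 SD, to 4.88, 8.93 and 16.6 CPM per kilobase.

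**Figure D4:**
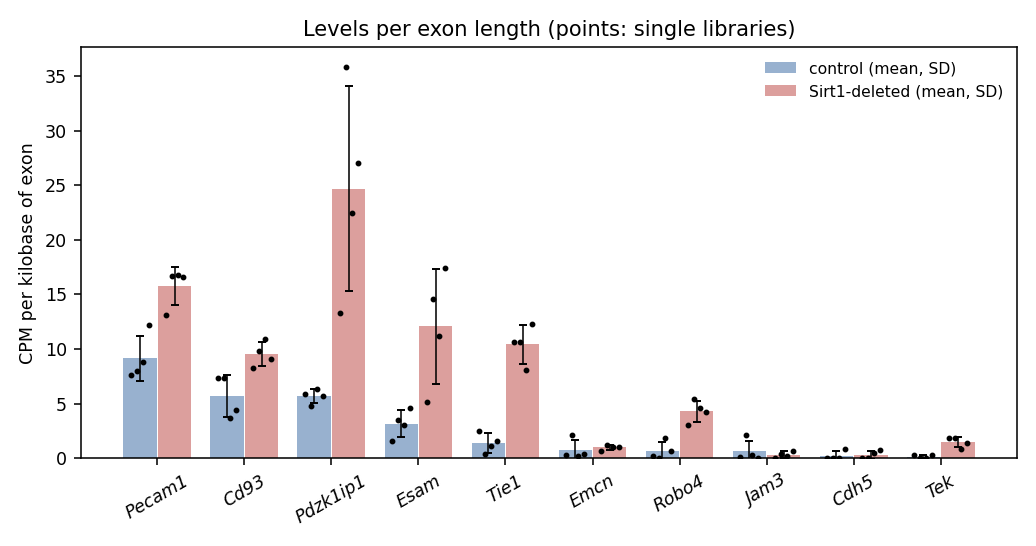
Bars give the mean CPM per kilobase of exon in 4 control and 4 Sirt1-deleted libraries, with SD as error bars (cut at 0) and single libraries as points, in the order of the control means. Pecam1 leads among controls at 9.16 and Pdzk1ip1 among Sirt1-deleted libraries at 24.7.

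Genes that work with the members were described next, from lists that were also drawn up with earlier results known. The counts of each list are to be read beside the shares of all genes tested. These were 0.0846% called in edgeR, 7.66% in DESeq2, 8.03% in limma-voom, 16.2% at an unadjusted p under 0.05 in edgeR, and 53.9% positive. Of 9 further genes of angiopoietin and Tie signalling, 5 were tested, with a median log2 fold change of 0.58 that was 0.24 without control 2. EdgeR called 0, with 1 (Angpt1) at an unadjusted p under 0.05, and DESeq2 and limma-voom called 1 each. Angpt1, which encodes the activating ligand of Tek, was at 19.3, 16.2, 8.64 and 11.1 CPM across controls 1 to 4 and at 16.9, 49.8, 32.2 and 45.0 CPM across Sirt1-deleted 1 to 4. Sirt1-deleted 1 lay among the controls, and the other 3 lay above them (log2 fold change 1.38 ± 0.39, edgeR adjusted p = 0.146). Genes that act below the receptor, the phosphatase gene Ptpn11 (0.60), the kinase subunit gene Pik3r1 (0.58) and the adaptor gene Dok2 (-0.22), had groups that overlapped. The ligand gene Angpt2 had at most 19 counts in a library, and Ptprb, the endothelial phosphatase that acts on Tek, had 0 counts in all 8.

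Of 14 junction and adhesion partners, 8 were tested, with a median log2 fold change of 0.34. EdgeR, DESeq2 and limma-voom called 0 of them, and 1 had an unadjusted p under 0.05 in edgeR. The catenin genes Ctnnb1 (164 ± 35.4 CPM among controls and 218 ± 31.0 among Sirt1-deleted libraries), Ctnna1 (43.4 ± 26.8 and 66.8 ± 10.1) and Jup (17.0 ± 14.4 and 30.7 ± 3.98), which link cadherins to the cytoskeleton, overlapped between genotypes. F11r, a junctional adhesion molecule gene related to Jam3, was at 15.5 ± 8.26 and 25.9 ± 12.1 CPM. Of the 8 tested, 5 (62.5%) had positive log2 fold changes, beside 53.9% of all genes tested, and 3 had negative ones. The negative genes were Itgb2 (-0.40, at 209 ± 69.4 and 158 ± 67.2 CPM), Tjp1 (-0.25) and Itgam (-0.11). The groups of all 3 overlapped, and these genes were picked out after their values were seen. The Robo ligand gene Slit2 had 0 counts in every control and at most 10 in a Sirt1-deleted library, and the Pdzk1 gene, whose product binds that of Pdzk1ip1, had 0 counts in all 8.

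Among 13 other surface genes shared by endothelium and stem cells, edgeR called 4 higher and 0 lower, beside 0.0846% of all genes called in either direction. The median log2 fold change was 1.39. The 4 called were Kit, the stem cell factor receptor gene (log2 fold change 1.89), the adhesion receptor genes Adgrg1 (1.48) and Adgrl4 (1.34), and the TGF-beta co-receptor gene Eng (2.16), with edgeR adjusted p from 0.0145 to 0.0487. DESeq2 and limma-voom called these 4 and also Cd34, Procr and Selp higher, and DESeq2 called Ly6a lower. Ly6a was lower in each Sirt1-deleted library than in any control (log2 fold change -1.09, edgeR adjusted p = 0.228). With single libraries left out, all 4 were called without Sirt1-deleted 1, Kit was also called without control 4, and 0 were called without any of the other 6, where adjusted p reached 0.204 for Eng and 0.0989 for the other 3. Eng was at 10.7, 14.2, 25.3 and 20.2 CPM across controls 1 to 4 and at 87.4, 84.4, 68.1 and 74.9 CPM across Sirt1-deleted 1 to 4, so that, as for Tie1 and Tek, Sirt1-deleted 1 was not the lowest of its group. Shared genes of the same kind that had near-equal means were Icam2 (75.2 ± 11.5 and 88.1 ± 11.3 CPM) and Egfl7 (171 ± 40.9 and 188 ± 44.2). They were picked out after their values were seen.

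Of 16 transcription factor genes that both tissues use, the median log2 fold change was 0.13, and 10 (62.5%) were positive, beside 53.9% of all genes tested. That median was 0.065 without Sirt1-deleted 2, 0.20 without Sirt1-deleted 1 and 0.20 without control 2. EdgeR called 0, with 7 at an unadjusted p under 0.05, DESeq2 called 3 and limma-voom 2. Among the 7, Lyl1 was lower in the Sirt1-deleted group (log2 fold change -0.60 ± 0.26). The other negative genes were Gata2 (-0.38), Klf2 (-0.24), Runx1 (-0.22), Ldb1 (-0.15) and Ets1 (-0.07), and the groups of all 6 overlapped. The smallest p belonged to Etv6, an ETS family gene, at 96.1 ± 6.72 and 157 ± 11.5 CPM (log2 fold change 0.71 ± 0.11, edgeR adjusted p = 0.0619), followed by Mecom (1.82 ± 0.36, 0.0950), Hhex (0.57 ± 0.15, 0.138) and Lmo2 (0.39 ± 0.14, 0.209). These 4 and the ETS gene Erg, at 9.53 ± 4.61 and 21.9 ± 4.44 CPM (log2 fold change 1.20, edgeR adjusted p = 0.243), had groups that did not overlap, 5 of 16 beside 6.64% of all genes tested. Fli1 (51.9 ± 10.4 and 56.2 ± 19.4 CPM) and Ets1 (33.8 ± 10.2 and 32.1 ± 14.9), 2 more ETS genes known from endothelium, overlapped. Erg, Fli1 and the 6 negative genes, Ets1 among them, were picked out after their values were seen. Of 12 stem cell markers, 11 were tested, with a median of 1.38. Mecom and Procr are among them and were already counted above, and without these 2 the median of the other 9 tested was 1.18. EdgeR called 0, with 6 at an unadjusted p under 0.05, DESeq2 called 5 and limma-voom 4. Meis1 (24.4 ± 10.3 and 68.7 ± 14.3 CPM), Hlf (13.4 ± 4.59 and 30.3 ± 4.72) and Mycn (8.38 ± 3.43 and 21.8 ± 6.41) were higher in each Sirt1-deleted library than in any control. Of the 11 tested, 9 had positive log2 fold changes and 2 negative ones, Hoxb5 (-1.19) and Ctnnal1 (-0.61). Both overlapped between genotypes, as did Slamf1 (1.14), and Hoxb5 was low, at means of 0.733 and 0.317 CPM. Hoxb5, Ctnnal1 and Slamf1 were picked out after their values were seen.

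Markers of endothelium itself differed in level, from 0 counts in every library to a group mean of 6.23 CPM for Plvap. Of 20 markers chosen as restricted to endothelium, 9 had at most 25 counts in the 8 libraries together, Ptprb, Cav1 and Gpihbp1 with 0 among them, and 7 were tested. EdgeR called 0 of these, with 2 at an unadjusted p under 0.05, and DESeq2 and limma-voom called 1 each (Plvap). The summed level of the 20 was 9.63 to 27.5 CPM among controls and 15.2 to 23.0 CPM among Sirt1-deleted libraries, ranges that overlap, with control 2 the highest. Those of highest mean were Plvap, at 0.385 ± 0.664 and 6.23 ± 1.62 CPM, Flt1 at 4.47 ± 3.08 and 1.45 ± 2.03, Nos3 at 2.90 ± 1.79 and 1.80 ± 0.94, and Stab2 at 2.44 ± 2.10 and 2.12 ± 2.45. Plvap had 0, 0, 3 and 29 counts across controls 1 to 4 and 220, 177, 149 and 184 across Sirt1-deleted 1 to 4, so that its groups did not overlap (edgeR adjusted p = 0.233). Like Tek, Plvap passed the filter on low counts only with its Sirt1-deleted libraries. With controls at 0 to 29 counts for both genes, the size of a fold is poorly set, and none is given for Plvap.

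Markers of other cell types that carry some of these genes were set beside them. Of 12 megakaryocyte markers, 8 were tested and all 8 had positive log2 fold changes, beside 53.9% of all genes tested. Their median was 1.51, and 0.97 without Sirt1-deleted 1 and 0.57 without both control 2 and Sirt1-deleted 1. EdgeR, DESeq2 and limma-voom called 0, and 2 had an unadjusted p under 0.05 in edgeR. Their summed level was 78.0 to 295 CPM among controls and 147 to 276 CPM among Sirt1-deleted libraries. Itga2b was at 122 ± 94.5 and 137 ± 52.0 CPM, Gp9 at 7.89 ± 6.67 and 28.7 ± 19.8, Gp5 at 1.85 ± 1.99 and 12.3 ± 2.76, Pf4 at 4.05 ± 1.62 and 8.89 ± 3.70, and Gp6 had 0 counts in all 8. Stromal markers, of which 1 of 10 was tested, summed to 4.39 to 26.6 CPM among controls and 41.6 to 87.9 CPM among Sirt1-deleted libraries. Pdgfrb made up most (18.5 ± 9.75 and 64.2 ± 28.8 CPM, edgeR adjusted p = 0.187, called higher by DESeq2 and limma-voom). Its groups overlapped, with Sirt1-deleted 1 at 22.3 CPM and control 4 at 26.3. The rest of the sum in Sirt1-deleted 1 came from Col1a2 (12.6 CPM), Col1a1 (4.48) and Kitl (2.32). Next by mean level were Col1a2, with 0, 0, 0 and 4 counts across controls 1 to 4 and 325, 0, 53 and 38 across Sirt1-deleted 1 to 4, Col1a1, with at most 5 counts in a control and 116 in Sirt1-deleted 1, and Kitl, with at most 1 count in a control and 60 in Sirt1-deleted 1. Pdgfra, Dcn and Lum had 0 counts in all 8. Of 14 myeloid genes, 1 was called and fell (Ms4a3; edgeR adjusted p = 0.0298, 0.0331 without Sirt1-deleted 1 and above 0.05 without each other library), 10 had an unadjusted p under 0.05, and the median was -1.18. DESeq2 called 8 lower and limma-voom 6, with sums of 13381 to 27369 CPM among controls and 8670 to 16025 among Sirt1-deleted libraries. The most abundant were Mpo, Prtn3, Elane and Ctsg. Of the 14, 12 had negative log2 fold changes and 2 positive ones, Csf1r (0.76, at 94.3 ± 35.7 and 160 ± 56.0 CPM) and Ltf (0.17). Both overlapped between genotypes and were picked out after their values were seen. The 10 B cell and plasma cell markers were all tested, with 0 called (edgeR, DESeq2 and limma-voom; 1 at an unadjusted p under 0.05 in edgeR), and summed to 834 to 2290 CPM among controls and 721 to 5232 among Sirt1-deleted libraries. Jchain (938 ± 476 and 2398 ± 1771 CPM), Xbp1 (316 ± 36.9 and 388 ± 150), Cd79b (112 ± 44.8 and 129 ± 18.2) and Mzb1 (76.4 ± 49.6 and 142 ± 85.4) were the most abundant. The part of these cell types in the values of the members was not tested.

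**Figure D5:**
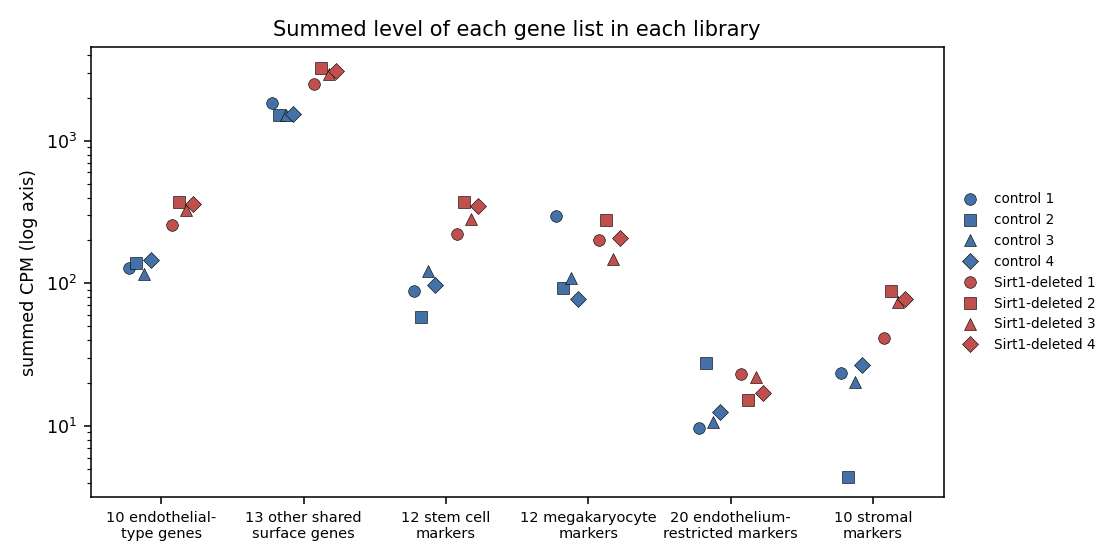
Each point is the summed CPM of a gene list in 1 library on a log axis, with controls in blue and Sirt1-deleted libraries in red. The 10 endothelial-type genes, the other shared surface genes, the stem cell markers and the stromal markers are apart between genotypes, while the megakaryocyte and endothelium-restricted markers overlap.

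Other genes had nearly the same profile over the 8 libraries. Likeness was measured as the root mean square distance, in log2 CPM, between the centred profile of a gene and the median centred profile of the tested members, among the 10028 genes that reached a mean of 5 CPM. The 5 closest were Gm4759 (distance 0.23), the histone demethylase gene Kdm5b (0.29), the potassium channel gene Kcna3 (0.30), Kit (0.31) and the carbonic anhydrase gene Car2 (0.32). Among the members, which make up that median, Pdzk1ip1 was at 0.28 and Esam at 0.36, and Tie1 (1.05), Tek (1.79), Jam3 (2.06) and Robo4 (2.20) were farther from the median of their own list.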

How the data were processed

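The 8 libraries were made, per the labels, with SMARTer Ultra Low Input (version 4) and Nextera XT, chemistry that marks no strand and carries no molecular identifiers. The authors deposited raw whole-number read counts for each gene. Tools named by the submitters' processing notes are HTSeq 0.9.1, STAR 2.5.3, Trim Galore 0.5.0, bcl2fastq 2.18.0.12 and DESeq2 1.20.0, with build GRCm38; neither the annotation release nor the strand setting is given in the sources used here. Of 48795 genes, 48349 (99.1%) were matched to a symbol. The 5 summary rows that name no gene held 33.2 to 40.6% of the records and were left out, reads with several alignments (24.1 to 32.3%) among them. Columns were matched to samples by title; that of control 4 differs from its title in the last letter and starts like no other title.

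The genotype test was the quasi-likelihood F test of edgeR 4.0.16 (R 4.3.3, limma 3.58.1), with TMM scaling, filterByExpr and robust estimation, over 14178 genes, called at an adjusted p under 0.05. A log2 fold change above 0 is a higher level in Sirt1-deleted libraries, and its SE is its size divided by the root of F. Exon lengths and coordinates are those of GENCODE M21 (GRCm38), and promoter windows those of RefSeq (GRCm38.p6). The procedure was checked on simulated counts. Alternatives were DESeq2 size factors, no filter, DESeq2 1.42.0, limma-voom with quality weights, each library left out, control 2 and Sirt1-deleted 1 left out together, titles starting with 2 and 4 alone, detected genes as a covariate, and the trend on length and GC removed per library (mgcv 1.9.3). Titles starting with 2 were all of controls and those starting with 4 all of Sirt1-deleted libraries. The setting with these titles alone therefore cannot separate the leading digit from genotype. P-values set the genotype difference against the spread between these libraries. Whether that is a spread between single mice is unknown, since pooling was not stated. Members, lists and tests were chosen with earlier results of these data known. The named genes are the 10 members and Sirt1, the called genes of each partner list or otherwise up to 4 of smallest p with a mean of at least 5 CPM, the 4 of highest mean level in each marker list, and the 5 closest profiles. Genes outside this rule are said to be picked after their values were seen, or are named for counts at 0.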

Additional observations from a re-analysis of the deposited data

Results flagged for a closer look

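In 4 of the 20 groups formed by 10 genes and 2 genotypes, 1 library stood far from the other 3, by the gap to its nearest neighbour as a share of the range of the group (Dixon's ratio, critical value 0.829 for 4 libraries). That critical value assumes normally distributed values, which low counts such as those of Cdh5 and Jam3 need not be. The 20 groups also share the same 8 libraries, so no rate by chance is set beside the 4. Cdh5 was far higher in control 4 than in the other controls (ratio 0.935). Emcn was far higher in control 2 (0.898), and so was Jam3 (0.848). Pecam1 was far lower in Sirt1-deleted 1 than in the other 3 of its group (0.934). Control 2 and Sirt1-deleted 1, which account for 3 of these 4, were also the libraries with the fewest detected genes.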

How the results depend on the processing

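The number of genes called over the whole table, 12 (7 higher and 5 lower), depended on the tool and the libraries. It was 1086 with DESeq2, 1139 with limma-voom, 311 without control 2 and Sirt1-deleted 1, 1 in the titles starting with 2 and 4, 0 with detected genes as a covariate and 6 (6 higher and 0 lower) with the length and GC trend removed, and ran from 0 to 451 with single libraries left out. Of the endothelial-type genes 0 were called, 5 with DESeq2, 5 with limma-voom, 2 without control 2 and Sirt1-deleted 1, and 0 to 3 with single libraries left out. Their median log2 fold change was 1.93, and 1.38 with no filter on low counts, where Cdh5 enters, and ran from 1.25 to 2.13 with single libraries left out. The genes tested also changed there. The 1.25, without control 1, was over 10 members with Cdh5 in, and the 2.13, without control 4, over 9. In the 16 alternatives Tie1 ran from 2.55 to 3.33, Tek from 2.85 to 4.00, Esam from 1.45 to 2.19, Pdzk1ip1 from 1.82 to 2.30, Robo4 from 2.20 to 3.83, Pecam1 from 0.57 to 0.96, Cd93 from 0.52 to 0.98 and Emcn from 0.03 to 1.84. The sign of Jam3 turned with limma-voom (1.84), without control 2 (1.18), without control 2 and Sirt1-deleted 1 (1.60) and with detected genes as a covariate (2.54), and ran from -1.67 to 1.18 with single libraries left out.

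The median of the endothelium-restricted markers, 0.26, turned in the titles starting with 2 and 4 (-0.34) and with detected genes as a covariate (-0.53), was 1.78 with limma-voom and 1.26 without control 2 and Sirt1-deleted 1, and ran from -0.31 to 0.91 with single libraries left out. That of the B cell and plasma cell markers, 0.19, turned with detected genes as a covariate (-0.14) and ran from -0.068 to 0.69. That of the Tie signalling genes, 0.58, ran from 0.24 to 0.65 and was 0.068 with detected genes as a covariate. That of the transcription factors, 0.13, ran from 0.065 to 0.20, and was 0.28 with limma-voom and 0.29 without control 2 and Sirt1-deleted 1. That of the junction partners, 0.34, was 0.63 with limma-voom, 0.64 with no filter and 0.15 after removal of the length and GC trends. The cause was not tested. No paired analysis was possible because the labels give no replicate numbers. Counts under about 10, in 5 libraries for Cdh5, 3 for Jam3 and 2 controls for Tek, limit these genes, and intervals were not formed because PCR copies are counted.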
